A study of Mus musculus with 10 samples.

Results

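The genes described are 10 genes of the contractile, calcium-handling and hormone programme of cardiac muscle, Myh6, Myl7, Myl4, Mybpc3, Tnnt2, Tnni3, Actc1, Ryr2, Sln and Nppa, as they were measured by RNA sequencing in mouse lung. They were chosen by name, as textbook genes of heart muscle cells with weight on the atrium, with earlier results of these data known. They are 10 of the 47333 genes in the deposited table. All 10 passed the filter on low counts, so that none of them is missing from the tests. The RNA came from the whole right middle lobe of 10 mice on the C57BL/6J background, aged 12 weeks and untreated, with both genotypes mixed within cages. The study asked how loss of Bpifb1, a gene for a secreted protein of the airway lining, changes gene expression in the lung, and compared 5 mice labelled KO (1 male, 4 females) with 5 labelled WT (2 males, 3 females). Beyond the word KO, the kind of allele is not given in the sources used here.

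In mice, the walls of the pulmonary veins carry a sleeve of cardiac muscle that is continuous with the left atrium and extends along the veins into the lung. Heart muscle cells contract when thick filaments of myosin slide along thin filaments of actin, which the troponin complex switches on when calcium is released from the sarcoplasmic reticulum. Atrial muscle uses its own forms of the myosin light chains and secretes natriuretic peptide, which separates it from ventricular muscle.

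Each library held 21357424 to 28321294 counts assigned to genes, and 24026 to 25135 genes were detected per mouse. Bpifb1 itself measured 0.217 to 1.26 CPM (counts per 1000000 counts of a library, after scaling) in the KO mice and 28.1 to 79.6 CPM in the WT mice. The library of KO replicate 5, labelled female, was at odds with its sex label in Xist, the RNA of the inactive X chromosome. Xist stood at 1.78 CPM there, against 274 to 407 CPM in the other females and 1.29 to 1.73 CPM in the males. The 4 genes of the Y chromosome examined (Ddx3y, Eif2s3y, Kdm5d, Uty) had 0 counts, which goes with the female label. WT replicate 4, a female, had the lowest level of all 10 cardiac muscle genes, and results are given below with and without both libraries where they move.

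All 10 genes were expressed in every mouse. Per kilobase of annotated exon, the scale on which genes can be compared with each other, the levels (mean ± SD, n = 10 mice) were highest for the atrial light chain gene Myl7, at 149 ± 48.2 CPM per kilobase. Actc1 followed at 108 CPM per kilobase, then Myh6 at 48.5, Tnni3 at 28.3, Myl4 at 19.5, Tnnt2 at 14.1, Nppa at 10.7, Sln at 7.45, Mybpc3 at 3.94 and Ryr2 at 0.826. Over the 10 mice the ranges of neighbours in this order overlapped, except for Mybpc3 and Ryr2. Within a mouse the order was steadier: each gene exceeded the next in 10 of 10 mice, apart from Tnnt2 over Nppa in 9 and Nppa over Sln in 8. Exon length here is the union of all annotated exons, which lowers the value of genes with long alternative transcripts such as Myl4 and Tnnt2.

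**Figure D1:**
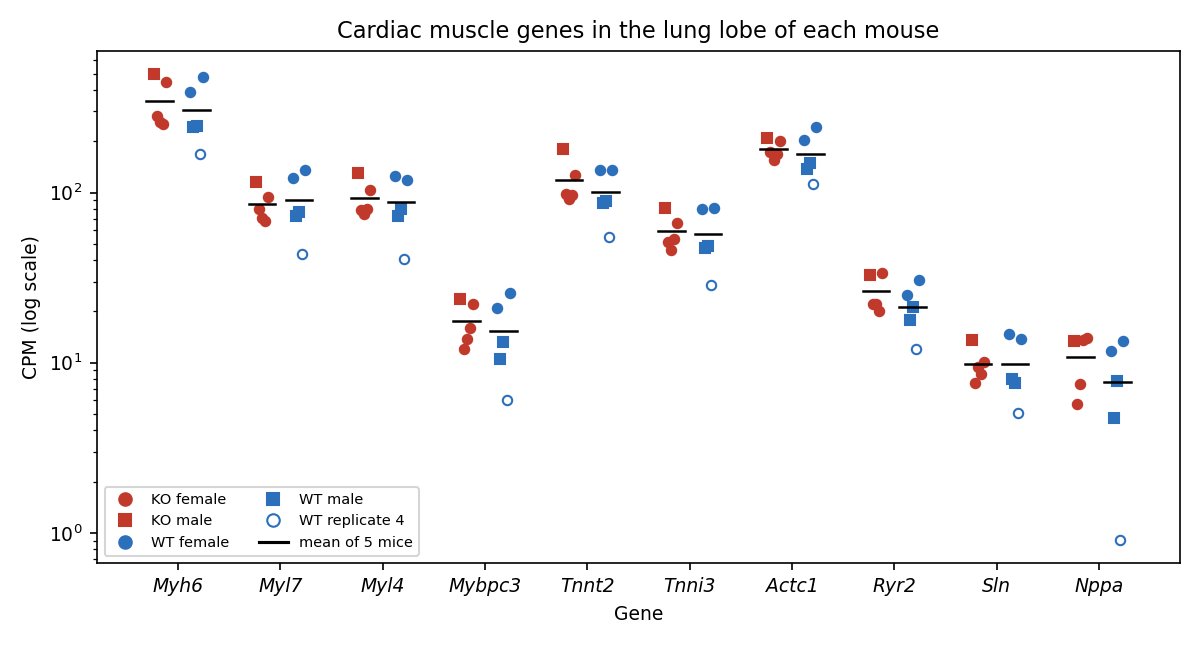
CPM of each gene (log axis) in each mouse, with KO in red, WT in blue, males as squares, females as circles and the group mean as a black bar. The open circle is WT replicate 4, the lowest mouse for each of the 10 genes, and for every gene the KO and WT points overlap.

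The stretches of 250 bases that end just before the start sites of Myl7, Actc1 and Mybpc3 are shown because, of the promoters matched, only these hold a binding-site match for the muscle factors SRF or MEF2. They are RefSeq starts on GRCm38.p6, printed 5′ to 3′ on the gene's strand, for Myl7 (chr11:5898783-5899032, minus strand), Actc1 (chr2:114052876-114053125, minus strand) and Mybpc3 (chr2:91117894-91118143, plus strand). Capitals mark a CArG box, the SRF motif, a MEF2 box or an M-CAT motif (CATTCC), searched on both strands.
Myl7: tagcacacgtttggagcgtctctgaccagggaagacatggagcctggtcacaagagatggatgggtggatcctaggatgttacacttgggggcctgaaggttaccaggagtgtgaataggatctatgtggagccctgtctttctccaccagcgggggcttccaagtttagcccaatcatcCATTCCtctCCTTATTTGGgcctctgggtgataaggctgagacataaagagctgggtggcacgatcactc
Actc1: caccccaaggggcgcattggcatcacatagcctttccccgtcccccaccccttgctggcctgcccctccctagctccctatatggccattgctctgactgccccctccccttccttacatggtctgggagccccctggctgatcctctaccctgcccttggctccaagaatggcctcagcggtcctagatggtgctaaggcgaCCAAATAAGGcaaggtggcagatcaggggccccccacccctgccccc
Mybpc3: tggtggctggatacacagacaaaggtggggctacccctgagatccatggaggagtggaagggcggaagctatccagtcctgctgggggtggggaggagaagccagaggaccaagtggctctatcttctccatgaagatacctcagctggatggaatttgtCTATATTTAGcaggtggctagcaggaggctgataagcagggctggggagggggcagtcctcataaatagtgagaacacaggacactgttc
The CArG box lay at -61 to -52 in Myl7, next to an M-CAT motif at -70 to -65, and at -47 to -38 in Actc1. In Mybpc3 the MEF2 box lay at -90 to -81. A CArG box was present in 1.47% of 32851 promoters of the same length, a MEF2 box in 3.20% and an M-CAT motif in 12.6%. Of the 10 promoters of 9 of the genes in the RefSeq table, 2 held a CArG box, 1 a MEF2 box and 3 an M-CAT motif (Myh6, Myl7 and Tnnt2). These are letter matches and not measured sites, and Sln had no entry in the table.

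The 4 thick filament genes did not separate the genotypes. Myh6 (ENSMUSG00000040752, GRCm38 chromosome 14, 54941921 to 54966927, minus strand) encodes alpha myosin heavy chain, the motor of atrial muscle and of the adult mouse ventricle. It measured 498, 282, 259, 252 and 447 CPM in KO replicates 1 to 5 and 391.8, 243, 246, 167 and 477 CPM in WT replicates 1 to 5. The mice fell into the same high and low levels in both genotypes, with KO replicates 1 and 5 and WT replicates 1 and 5 the 4 highest. The means were 347 ± 116 CPM in KO and 305 ± 126 CPM in WT (SD, n = 5 each). The log2 fold change KO minus WT was 0.19 (SE 0.36, 95% interval -0.644 to 1.021), which did not pass the test (edgeR adjusted p = 0.83). Of the 50-base windows of Myh6 transcripts, 20.2% also occur in Myh7, its neighbour gene for beta myosin heavy chain, so that the division of reads between the pair is uncertain. Myh7 itself measured 22.8 to 37.5 CPM.

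Myl7 (ENSMUSG00000020469, chromosome 11, 5896637 to 5898782, minus strand) encodes the atrial regulatory light chain. Its levels were 115, 80.2, 70.6, 68.2 and 93.7 CPM in the KO mice and 122, 72.4, 76.8, 43.3 and 135 CPM in the WT mice, in replicate order. WT held both the lowest and the highest mouse, and the log2 fold change was -0.07 (SE 0.33, 95% interval -0.85 to 0.71, edgeR adjusted p = 0.94). Myl4 (ENSMUSG00000061086, chromosome 11, 104550663 to 104595753, plus strand), the atrial essential light chain gene, ranged from 40.7 CPM in WT replicate 4 to 130 CPM in KO replicate 1. Its means were 93.6 ± 23.6 CPM in KO and 87.4 ± 34.7 CPM in WT (SD, n = 5 each). For Myl4 the log2 fold change was 0.10 (SE 0.33). Mybpc3 (ENSMUSG00000002100, chromosome 2, 91118144 to 91136516, plus strand) encodes cardiac myosin-binding protein C, which sits on the thick filament and tunes how myosin engages actin. It ranged from 5.99 CPM in WT replicate 4 to 25.7 CPM in WT replicate 5, a 4.29-fold span, and its log2 fold change was 0.19 (SE 0.41).

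The thin filament genes showed the same picture. Tnnt2 (ENSMUSG00000026414, chromosome 1, 135836354 to 135852260, plus strand) encodes cardiac troponin T, which anchors the troponin complex to tropomyosin. It measured 180, 98.5, 91.1, 96.6 and 127 CPM in the KO mice and 135, 86.3, 89.0, 54.8 and 136 CPM in the WT mice. The highest value was that of KO replicate 1, and the remaining 4 KO mice lay within the WT range. Tnnt2 had a log2 fold change of 0.25 (SE 0.31, 95% interval -0.47 to 0.97, edgeR adjusted p = 0.73). Tnni3 (ENSMUSG00000035458, chromosome 7, 4518305 to 4524229, minus strand), the gene for the inhibitory subunit, cardiac troponin I, ranged from 28.4 CPM to 81.7 CPM, both in WT mice, with a log2 fold change of 0.06 (SE 0.32). Its exons share 86 bases with Dnaaf3 on the same strand, a gene that stayed between 10.7 and 14.9 CPM.

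Actc1 (ENSMUSG00000068614, chromosome 2, 114047282 to 114053548, minus strand) encodes cardiac alpha actin, the thin filament itself. Its levels were 209.7, 174, 156, 168 and 200.6 CPM in the KO mice and 205, 137, 150.2, 112 and 242 CPM in the WT mice. Its highest mouse was 2.15-fold above its lowest, the narrowest span of the 10 genes, and the KO mice lay entirely inside the WT range. The log2 fold change was 0.09 (SE 0.22, 95% interval -0.41 to 0.59, edgeR adjusted p = 0.87).

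Both calcium-handling genes also varied more between mice than between genotypes. Ryr2 (ENSMUSG00000021313, chromosome 13, 11553102 to 12106945, minus strand) encodes the cardiac ryanodine receptor, the channel that releases calcium from the sarcoplasmic reticulum. It measured 32.8, 22.1, 22.3, 20.0 and 33.8 CPM in KO and 25.0, 17.8, 21.3, 12.1 and 30.6 CPM in WT. KO replicates 1 and 5 were above every WT mouse and the other 3 KO mice within the WT range, with a log2 fold change of 0.30 (SE 0.28, 95% interval -0.34 to 0.94, edgeR adjusted p = 0.62). Sln (ENSMUSG00000042045, chromosome 9, 53850164 to 53854560, plus strand) encodes sarcolipin, an inhibitor of the calcium pump that is typical of atrial muscle. Its means were 9.84 ± 2.28 CPM in KO and 9.80 ± 4.17 CPM in WT (SD, n = 5 each), over a range of 5.08 to 14.7 CPM.

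Nppa (ENSMUSG00000041616, chromosome 4, 148000722 to 148002079, plus strand), the gene for atrial natriuretic peptide, was the most variable. It measured 13.5, 5.69, 7.48, 13.6 and 13.9 CPM in the KO mice and 11.8, 4.72, 7.83, 0.912 and 13.4 CPM in the WT mice. WT replicate 4 stood far below the rest, at 21 counts (0.912 CPM, exact 95% Poisson interval 0.565 to 1.39 CPM, counting error only). The highest mouse was 15.2-fold above this one and 2.95-fold above the next lowest. The log2 fold change was 0.47 (SE 0.60, 95% interval -0.93 to 1.86, edgeR adjusted p = 0.74). On the opposite strand the annotated antisense gene Gm13054 overlaps 532 exonic bases of Nppa. Gm13054 ranged from 1.26 to 15.9 CPM and followed Nppa over the 10 mice (Pearson's r = 0.98, permutation p = 3e-05; Spearman's rho = 0.94, permutation p = 0.00031; r = 0.98 without the 2 farthest mice). The library kit was stranded, but the strand setting of the count is not given in the sources used here, so reads of the 2 genes may not be fully separated.

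None of the 10 genes was called between the genotypes at an adjusted p under 0.05 with edgeR's quasi-likelihood test, against 0.0222% of the 18024 genes tested. At an unadjusted p under 0.05 the count was also 0 of 10, beside 17.0% of all genes. DESeq2 and limma-voom called none of the 10 either, beside 346 and 2 of all genes. For 10 of 10 genes the KO and WT ranges overlapped, where 1.88% of all genes had ranges that did not. In this fit 8 genes were higher in KO and 2 (Myl7 and Sln) lower, with a median log2 fold change of 0.15 beside -0.0027 over all genes tested. That median depended on single mice: it was -0.04 without WT replicate 4 and 0.36 without WT replicate 5. Without KO replicate 1, the only KO male, the median was -0.15. With sex as a covariate, that fit compares the genotypes among females only, and in females alone the median was also -0.15. It was 0.07 without KO replicate 5, again with 0 of the 10 genes called, beside 2 of all genes. The 95% intervals reached from -0.93 to 1.86 on the log2 scale, both for Nppa, and differences within a gene's interval are not excluded by these 5 mice per genotype. In whole tissue, fewer cells of a type and less RNA per cell cannot be told apart.

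**Figure D2:**
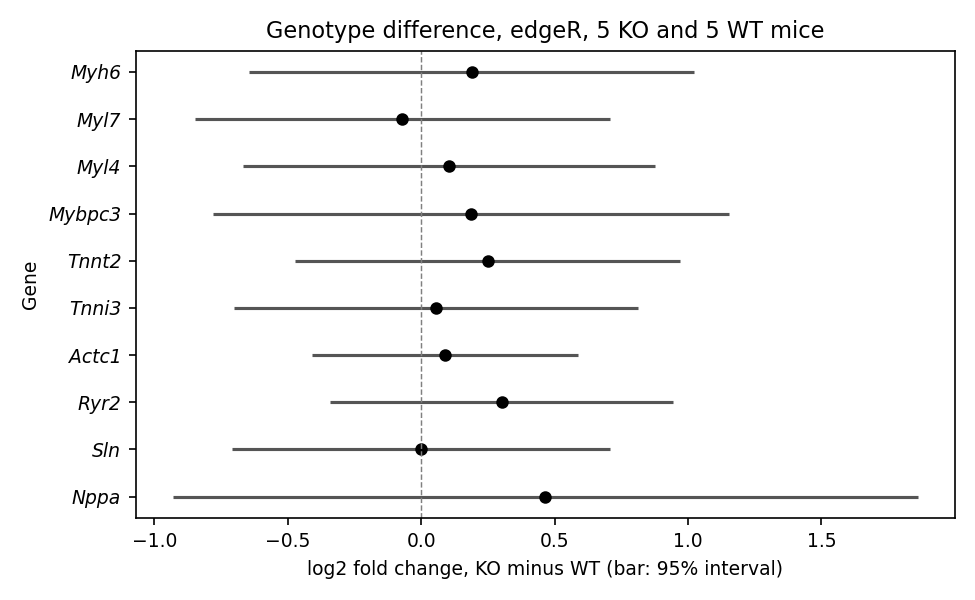
Log2 fold change KO minus WT of each gene (point) with its 95% interval (bar), from the edgeR fit over 5 KO and 5 WT mice with sex as a covariate. Each of the 10 intervals crosses 0, and that of Nppa is the widest, from -0.93 to 1.86.

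None of the genes passed the same test for sex. The log2 fold changes male minus female ran from -0.10 to 0.18 with a median of 0.01, beside -0.0064 over all genes, in 3 males and 7 females. With edgeR, 0 of 10 genes were called (0.583% of all genes were) and 0 had an unadjusted p under 0.05 (15.1% of all genes did). For 10 of 10 the male and female ranges overlapped, where 4.81% of all genes had ranges that did not. Without KO replicate 1 the median was -0.42. That fit called 0 of all genes, so its 0 of 10 tells nothing about these genes.

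Levels differed more from mouse to mouse than between the group means. Summed over the 10 genes, levels were 1297, 813, 749.9, 775 and 1118 CPM in KO replicates 1 to 5 and 1132, 699, 741, 471 and 1274 CPM in WT replicates 1 to 5. This made up 0.0471% to 0.130% of the counts of a lobe, a 2.755-fold range, or 1.86-fold without WT replicate 4. The same 4 mice, KO replicates 1 and 5 and WT replicates 1 and 5, were the highest in 9 of the 10 genes. The exception was Nppa, in which KO replicate 4 took the place of WT replicate 1.

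**Figure D3:**
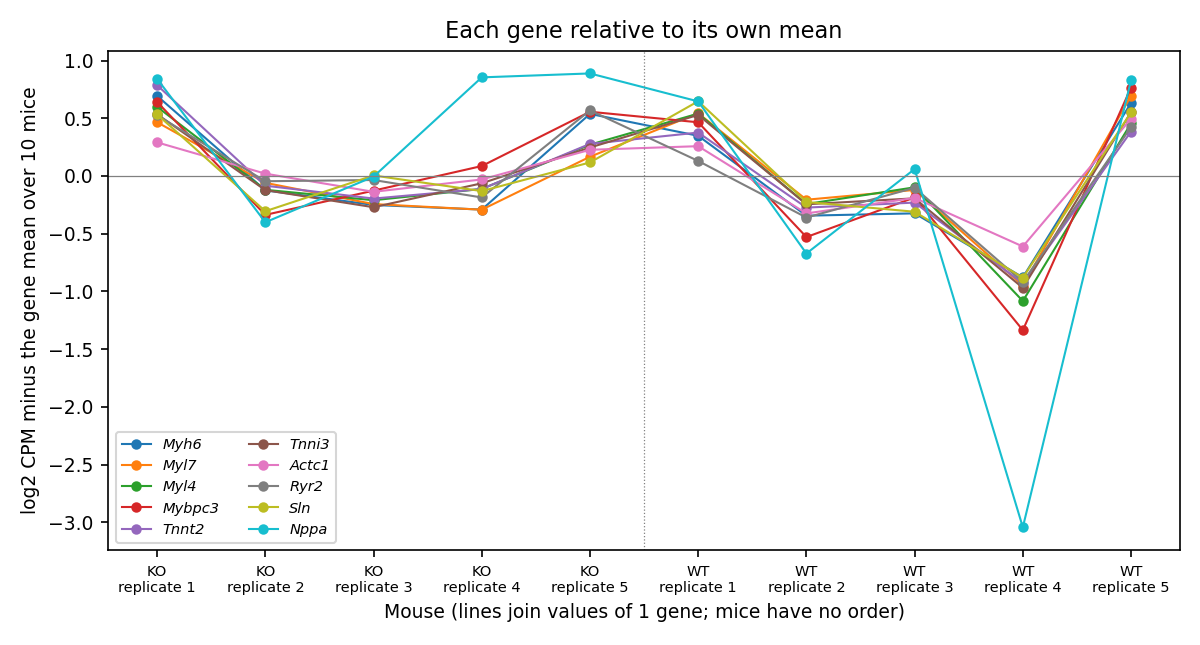
Log2 CPM of each gene minus that gene's mean over the 10 mice, with 1 line per gene; the mice have no order and the dotted line separates KO from WT. The lines run together, with WT replicate 4 the lowest for all 10 genes, and Nppa departs furthest, downward in WT replicate 4 and upward in KO replicate 4.

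As a measure of spread, the SD of log2 CPM over the 10 mice was 0.33 for Actc1, 1.18 for Nppa and 0.48 at the median of the 10 genes. Over all genes tested the median SD was 0.15, and 6.02% of them exceeded the median of the cardiac muscle genes. Among the 10868 genes with mean levels in the range of these 10 genes, the median SD was 0.12 and 2.03% varied more than Actc1. The median of the 10 genes was 0.37 without WT replicate 4 and 0.51 without KO replicate 5.

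The genes rose and fell together from lobe to lobe. Each gene was correlated over the 10 mice with the mean log2 CPM of the other 9, as 10 relations with Benjamini-Hochberg adjustment. Mybpc3 followed the others most closely (Pearson's r = 0.986, permutation p = 3e-05, adjusted p = 0.000133; Spearman's rho = 0.94, permutation p = 0.00033, adjusted p = 0.0014; r = 0.97 without the 2 farthest mice). Myl7 had r = 0.94 (permutation p = 0.00033, adjusted p = 0.000378; rho = 0.77, permutation p = 0.0121, adjusted p = 0.013; r = 0.88 without the 2 farthest mice). Nppa had the lowest value, r = 0.88 (permutation p = 0.00087, adjusted p = 0.00087; rho = 0.77, permutation p = 0.013, adjusted p = 0.013). Without its 2 farthest mice, WT replicate 4 and KO replicate 1, the r of Nppa was 0.75 (exact permutation p = 0.0497 over 8 mice).

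Over the 10 genes the median r was 0.95 and the range of rho was 0.77 to 0.94. The r stayed between 0.75 and 0.97 once WT replicate 4 and 1 other far mouse (KO replicate 1, or WT replicate 5 for Myl4 and Tnnt2) were left out. Residuals after removing genotype and sex gave r of 0.89 to 0.99. The 45 pairs of genes had r from 0.79 to 0.99 with a median of 0.94. In mean log2 CPM the widest gap between ranked mice, 0.80 of a range of 1.73, separated WT replicate 4 from the rest.

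Relative to the mean of the other 9 genes, Nppa departed furthest from the shared pattern. Nppa stood at -1.995 log2 units from its usual relation in WT replicate 4, where every member was low, and 0.96 above it in KO replicate 4. Actc1 stood 0.60 above its usual relation in WT replicate 4. Every other gene except Mybpc3 (-0.20) was also above its own there, against a mean of the others that includes Nppa. The SD of these relative levels was 0.79 for Nppa and at most 0.26 for the other genes.

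Other genes of heart muscle were compared with Myl7, the atrial gene of the highest level per kilobase with no 50-base window shared with another gene, which was chosen as the reference after its values were seen. Over 111 genes, the 9 other members included, adjusted by Benjamini-Hochberg, 19 of 20 genes of the sarcomere and Z disc followed Myl7 at an adjusted permutation p under 0.05, and 14 also had an exact permutation p under 0.05 over the 8 mice left without WT replicates 4 and 5. The 9 other members all passed with 10 mice, and 8 of them with 8; for Nppa r was 0.80 (permutation p = 0.0051, adjusted p = 0.0116; rho = 0.45, permutation p = 0.19) and 0.52 over 8 mice. Ldb3, a Z disc scaffold, had r = 0.96 (permutation p = 9e-05, adjusted p = 0.00123; rho = 0.90, permutation p = 0.00087; r = 0.90 over 8 mice). The exception was Nebl, the gene for nebulette, at a mean of 183 CPM with r = 0.06 (permutation p = 0.867, adjusted p = 0.914; rho = 0.14, permutation p = 0.707; r = 0.05 over 8 mice). All 9 genes of muscle energy metabolism followed Myl7 over 10 mice, and 8 also had an exact permutation p under 0.05 over 8 mice. Ckm, muscle creatine kinase, had r = 0.97 (permutation p = 5e-05, adjusted p = 0.00123, rho = 0.85 with permutation p = 0.00306, and r = 0.93 over 8 mice).

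Genes of calcium handling and excitation were divided, with 8 of 16 past the same threshold and 6 also at an exact permutation p under 0.05 over 8 mice. Casq2, the calcium store protein of the cardiac reticulum, gave the highest value, r = 0.99 (permutation p = 2e-05, adjusted p = 0.00123; rho = 0.96, permutation p = 7e-05; r = 0.97 over 8 mice). Atp2a2, the calcium pump, stood at 393 CPM with r = 0.78 (permutation p = 0.00508, adjusted p = 0.0116; rho = 0.65, permutation p = 0.0487), but r was 0.54 over 8 mice. Cacna1c, the L-type calcium channel gene, had r = -0.18 (permutation p = 0.633, adjusted p = 0.731; rho = -0.32, permutation p = 0.37; r = 0.06 over 8 mice). Among the 8 cardiac transcription factor genes compared, Tbx20 and Nkx2-5 passed. Gata4 (r = 0.46), Hand2 (r = 0.57), Mef2c (r = 0.24), Tbx18 (r = 0.45) and Tbx5 did not. For the first 4 of those the adjusted permutation p was 0.151 to 0.607. Nkx2-5, at 3 to 23 counts per mouse, had r = 0.83 (permutation p = 0.00395, adjusted p = 0.00933). It fell short by rank (rho = 0.62, permutation p = 0.0599) and over 8 mice (r = 0.55, exact permutation p = 0.168). Tbx20 had r = 0.91 (permutation p = 0.00069, adjusted p = 0.00255; rho = 0.85, permutation p = 0.0029; r = 0.79 over 8 mice). Tbx5, which is also expressed in lung mesenchyme, had r = -0.43 (permutation p = 0.211, adjusted p = 0.313; rho = -0.35, permutation p = 0.33; r = -0.03 over 8 mice).

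**Figure D4:**
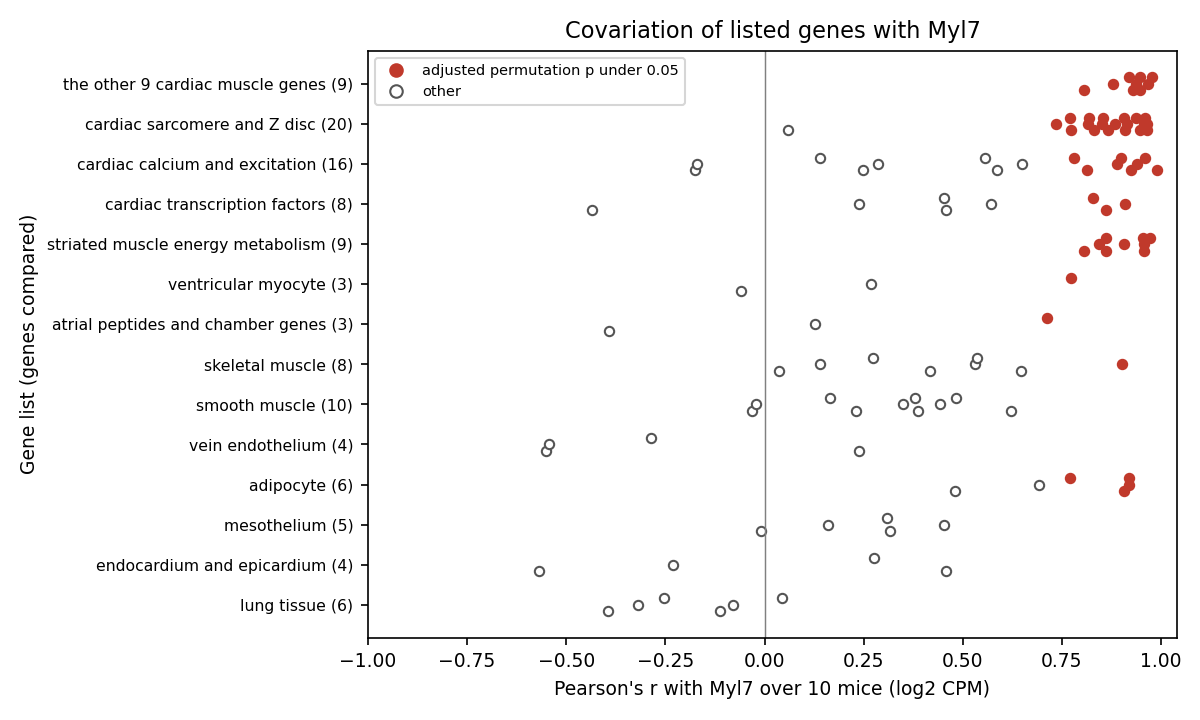
Pearson's r of each listed gene with Myl7 over the 10 mice, by list, with the number of genes compared in parentheses; filled points have a Benjamini-Hochberg adjusted permutation p under 0.05. Most genes of the cardiac sarcomere and energy lists lie toward the right, with Nebl apart at r = 0.06, and 4 of 6 adipocyte genes are filled. Among smooth muscle genes 0 of 10, among mesothelial genes 0 of 5 and among lung genes 0 of 6 are filled.

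Of 5 ventricular genes listed, 2 were at or near 0 and 3 were present. Myl2, the ventricular regulatory light chain, had 0 to 2 counts per mouse and Irx4 had 0 counts in all 10, where a count of 0 allows up to 3 counts, 0.1036 to 0.1429 CPM depending on the library. Myl3, the ventricular essential light chain, was present at 2.78 to 11.1 CPM, Hey2 at 3.13 to 5.04 CPM and Myh7 at 22.8 to 37.5 CPM. Myl3 followed Myl7 over 10 mice (r = 0.77, permutation p = 0.00988, adjusted p = 0.0211; rho = 0.54, permutation p = 0.113), but r was 0.39 over 8 mice. Hey2 did not pass (r = -0.06, permutation p = 0.873, adjusted p = 0.914; rho = -0.10, permutation p = 0.785; r = -0.40 over 8 mice). Of 5 atrial peptide and chamber genes listed, Bmp10 (0 to 1 count) and Nppb (0 to 9 counts) were also close to 0. The others were present, with means of 102 CPM for Dkk3, 9.86 CPM for Nr2f1 and 3.14 CPM for Corin. Corin followed Myl7 (r = 0.71, permutation p = 0.0187, adjusted p = 0.0378, rho = 0.73 with permutation p = 0.02, and r = 0.73 over 8 mice). Dkk3 (r = 0.13) and Nr2f1 (r = -0.39) did not pass. Myh7 did not pass either (r = 0.27, permutation p = 0.455, adjusted p = 0.567; rho = 0.30, permutation p = 0.408; r = 0.0033 over 8 mice), and its log2 fold change KO minus WT was -0.28 (SE 0.089, edgeR adjusted p = 0.18).

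The listed skeletal muscle genes differed in level. Acta1 had 0 to 6 counts, Myh2 0 to 4 and Myh1 3 to 11 per mouse, and these did not pass the filter on low counts. Among those that passed, Myl1 had 34 to 168 counts, Mybpc2 58 to 115, Tnnt3 51 to 99, Ryr1 32 to 79 and Actn3 16 to 32. Of 8 skeletal genes compared only Myl1 followed Myl7 (r = 0.90, permutation p = 0.00051, adjusted p = 0.00211; rho = 0.87, permutation p = 0.00231; r = 0.92 over 8 mice). Smooth muscle genes summed to 1166 to 1424 CPM in KO and 1175 to 1569 CPM in WT, and 0 of 10 followed Myl7. The 5 genes of mesothelium, 4 of vein endothelium, 4 of endocardium and epicardium and 6 of lung tissue included 0 past the threshold.

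Adipocyte genes followed Myl7 in 4 of 6 cases, 3 of them also at an exact permutation p under 0.05 over 8 mice. Their part in the results was not tested. Their summed level was 109 to 249 CPM in KO and 57.8 to 279 CPM in WT, with WT replicate 4 the lowest and WT replicate 5 the highest mouse. Adipoq, the gene for the fat hormone adiponectin, had r = 0.92 with Myl7 (permutation p = 0.00024, adjusted p = 0.00157; rho = 0.90, permutation p = 0.0008; r = 0.78 over 8 mice). Plin1, a coat protein of fat droplets, had r = 0.92 (permutation p = 0.00049, adjusted p = 0.00211; rho = 0.79, permutation p = 0.00872; r = 0.83 over 8 mice). Ucp1, which defines brown fat, had 0 to 10 counts per mouse.

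The level of Myl7 was not shown to move with library size (r = 0.44, permutation p = 0.206; rho = 0.50, permutation p = 0.144; r = 0.13 without the 2 farthest mice).

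Between the genotypes, 0 of the 102 list genes tested beside the members were called, of 116 listed, and 12 had an unadjusted edgeR p under 0.05 (17.0% of all genes did). In KO, 16 of 20 sarcomere and Z disc genes were higher (median log2 fold change 0.12, beside -0.0027 over all genes). Of calcium and excitation genes 15 of 16 were higher (median 0.17), and of energy genes 2 of 9 (median -0.06). In these lists 19 of 20, 8 of 16 and 9 of 9 genes followed Myl7 from mouse to mouse, so the genes counted are not independent. How far these counts depend on single mice was not tested. The medians were 0.05 for 6 adipocyte genes and -0.09 for 10 smooth muscle genes.

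Among 18014 other genes tested, those with log2 CPM most like the mean of the 10 genes over the 10 mice were, in order of Pearson's r, Srl (0.985), Fndc5 (0.983), Ckm (0.982), Ldb3 (0.981), Plin1 (0.980), Tnnc1 (0.979), Mybphl (0.979), Casq2 (0.976), Mapk10 (0.972) and Pgam2 (0.970). Of these 10, 6 were in the cardiac or energy lists and Plin1 in the adipocyte list. An r above 0.9 was reached by 66 genes, 26 of them from the lists, and 24 were above 0.95. Mybphl, which encodes a myosin-binding protein of atrial muscle, ranged from 6.38 to 17.9 CPM. Srl, a calcium-binding protein of the reticulum, ranged from 7.90 to 21.8 CPM.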

How the data were processed

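RNA of the right middle lung lobe of 10 mice was sequenced from stranded mRNA libraries, per the labels' protocols. The deposited values are estimated counts per gene, unscaled, in 1 table made by the authors; 30.06% of non-zero values were more than 0.01 from a whole number. STAR 2.6.0, Salmon 0.9.1, FastQC and MultiQC, and the builds mm10 and GRCm38, are named per the submitters' processing notes; their settings and the gene annotation are not given in the sources used here. Groups and sex came from the labels, and nothing there ties mice of the 2 genotypes together. The members and all gene lists were chosen with earlier results of these data known.

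Counts were rounded. Gene positions and names came from GENCODE M21 (GRCm38), in which 47281 of 47333 identifiers matched. Genes were kept by filterByExpr by genotype (minimum count 10, minimum total 15), which left 18024, and normalised by TMM. The test was edgeR 4.0.16's robust quasi-likelihood test (R 4.3.3) with genotype and sex, Benjamini-Hochberg adjustment over all genes tested, and calls at an adjusted p under 0.05. Log2 CPM used a prior count of 2. Correlation p-values came from 100000 two-sided permutations (smallest possible p 1e-05; scipy 1.17.1), and exact ones from all orders of 8 mice. Intervals on counts and the floor of 3 counts cover counting error only, as reads carried no molecular identifiers.

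Alternatives were DESeq2 size factors, no filter, a mean CPM of at least 1, no covariate, DESeq2 1.42.0, non-robust dispersion, limma-voom (limma 3.58.1), females alone, an adjusted p under 0.1 and leaving out each mouse. The edgeR script was tested on simulated counts. The named genes were all members, list genes called in either comparison and up to 4 of the highest level per list, the 10 genes most like the members' mean and the 3 most opposite (mean CPM at least 1), with Myh7 and Bpifb1. Any further list gene named was picked with its values known. The result for 1 listed gene is not reported here.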

Additional observations from a re-analysis of the deposited data

How the results depend on the processing

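None of the 10 genes was called between genotypes or sexes under any alternative run, with a lowest adjusted p of 0.3655 over the edgeR, DESeq2 and limma-voom settings for genotype and 0.604 for sex. No paired analysis was possible because the labels give no replicate numbers that could tie a KO to a WT mouse. The number of all genes called between genotypes, 4, became 57 at an adjusted p under 0.1, 50 without a filter, 346 with DESeq2 and 2 with limma-voom, and 2 to 18 when a mouse was left out. Between sexes 105 genes became 351 at an adjusted p under 0.1, 197 without a filter, 41 without a covariate and 436 with DESeq2, and 0 to 195 when a mouse was left out. The cause of these shifts was not tested.

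Directions were not stable. In females alone the log2 fold change turned to -0.158 for Myh6, -0.168 for Myl4, -0.1393 for Mybpc3, -0.0788 for Tnnt2, -0.2315 for Tnni3 and -0.0956 for Actc1. Myl7 turned to 0.0297 with limma-voom. Sln, at -0.00034 with all mice, turned to 0.0028 with DESeq2 size factors, 0.0019 without the covariate, 0.0074 with DESeq2 and 0.0782 with limma-voom. With a mouse left out, log2 fold changes ran from -0.1576 to 0.4471 for Myh6, -0.3572 to 0.1643 for Myl7, -0.1675 to 0.3151 for Myl4, -0.1386 to 0.5145 for Mybpc3, -0.0783 to 0.4338 for Tnnt2, -0.2311 to 0.2561 for Tnni3, -0.0952 to 0.2762 for Actc1 and -0.3283 to 0.2108 for Sln. For each of these genes the lowest value came from the fit without KO replicate 1. That fit repeats the comparison in females alone, because the males left in it were all WT. Ryr2 and Nppa kept their sign in all 18 settings. The median r of a gene with the mean of the others, 0.952, became 0.8909 by Spearman's rho, and 0.9405 to 0.9648 with a mouse left out.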

Other observations

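The genes with the most opposite pattern, among those with a mean of at least 1 CPM, were Grin2d, Eng and Mmp28. Eng, which encodes endoglin, a co-receptor of endothelial cells, averaged 758 ± 44.4 CPM (SD, n = 10) and had r = -0.90 and rho = -0.89 with the members' mean, and r = -0.90 without WT replicate 4 and KO replicate 1. Mmp28, a secreted metalloproteinase gene, averaged 36.2 ± 4.68 CPM with r = -0.89 and rho = -0.88. Grin2d, a glutamate receptor subunit gene, averaged 5.34 ± 0.682 CPM with r = -0.92 and rho = -0.87. These values are shares of each library, were picked as the extremes of 18014 genes, and carry no test. None of the 3 was called between the genotypes (edgeR adjusted p = 0.8478 for Grin2d, 0.9353 for Eng and 0.9254 for Mmp28).

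Of the genes outside the lists, 3 (Fndc5, Mapk10 and Mybphl) were among the most alike. Fndc5, the gene for the precursor of irisin, ranged from 5.69 to 15.7 CPM, and Mapk10, a stress kinase gene, from 2.08 to 6.54 CPM.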
